A study of Homo sapiens with 3 samples.

Results

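TRIM, RNF and F-box genes encode much of the cell's substrate-choosing ubiquitin machinery, and exon skipping in them was followed during reprogramming of human fibroblasts. The members were all rows of the 2 deposited exon-skipping tables whose gene symbol begins with TRIM, RNF, FBXO, FBXL or FBXW followed by a digit. The rule found 133 of 11222 gene symbols and 420 of 39434 exons. The RS2 table held 453 member rows, in 365 exons of 126 genes, out of 40702 rows. The RS3 table held 468 member rows, in 374 exons of 124 genes, out of 42518 rows. Both tables listed 319 of the exons, while 55 were in the RS3 table only and 46 in the RS2 table only. Of all 39434 exons, 33745 were listed for RS2 and 34977 for RS3, so listing in a single table was not particular to the members.

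The cells were BJ fibroblasts, a foreskin fibroblast line, collected 8 days after induction of the 4 virally delivered pluripotency factors abbreviated OSKM. Per the labels, 1 library came from cells given SMAD3 siRNA, 1 from cells given SFRS11 siRNA and 1 from cells given a non-targeting siRNA, so each group had 1 library and every group carried these factors. SMAD3 is a transcription factor of TGF-beta signalling, and SFRS11, also called SRSF11, is a serine- and arginine-rich splicing protein. The tables name their libraries RS2 and RS3 and compare each with a shared library, here the comparator. No label links these codes to an siRNA, and none is assigned here. The tables hold no expression levels, so neither the knockdowns nor fibroblast identity could be checked. Inclusion level is the share of transcripts that keep an exon, averaged over all cells of a culture, so a shift in every cell and a switch in some cells cannot be told apart. Each difference is the level in RS2 or RS3 minus the level in the comparator. Each p-value and FDR is the authors' own and sets 1 library against another, with no replicate check, and the read depth is unknown. An exon can fill several rows, and unless all are given, the value given comes from its row of lowest p-value.

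Ubiquitin ligases choose which proteins are tagged with ubiquitin. Most TRIM proteins carry a tripartite motif, a RING finger that recruits the ubiquitin-conjugating enzyme, B-box zinc fingers and a coiled coil through which they dimerize. In most the motif is followed by a domain that binds the target. RNF proteins share a RING domain but little else. F-box proteins have no RING of their own: they bind SKP1 and deliver targets to the SCF complex, whose catalytic RING subunit is RBX1. FBXL proteins carry leucine-rich repeats, FBXW proteins WD40 repeats, and FBXO proteins other domains.

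The exon that gave the firmest difference was a 23-base exon of TRIM41, a RING ligase known to act on protein kinase C. It belonged to a set of 23-base exons found in several TRIM genes. Those of 4 genes are printed so that the exons and the bases on each side can be compared. Each line runs 5′ to 3′, with the 23-base exon in capitals and the last 15 bases of the exon before it and the first 15 bases of the exon after it in lower case. The hg19 positions are those of the deposited tables, and the sequences are those of coding transcripts in GENCODE release 29.

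TRIM41, chr5:180660413-180660435, plus strand: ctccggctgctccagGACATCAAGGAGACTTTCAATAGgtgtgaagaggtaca
TRIM22, chr11:5727824-5727846, plus strand: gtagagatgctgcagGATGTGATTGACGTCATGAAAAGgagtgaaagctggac
TRIM5, chr11:5688919-5688941, minus strand: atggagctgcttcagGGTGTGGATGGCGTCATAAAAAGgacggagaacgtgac
TRIM4, chr7:99501199-99501221, minus strand: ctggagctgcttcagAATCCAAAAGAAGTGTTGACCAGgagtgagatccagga

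The 23-base exon of TRIM35 was matched but not printed, so the counts of identical bases leave it out. Of the 53 bases shown, 17 were the same in all 4 genes. The 15 bases before the exon had 9 in common, against 5 of the 23 exon bases and 3 of the 15 bases after it. TRIM22 and TRIM5, neighbours in a cluster of antiviral TRIM genes on chromosome 11, had 18 of 23 exon bases in common, while TRIM41 had 11 in common with TRIM22, 10 with TRIM4 and 9 with TRIM5. In all 5 genes with a GENCODE match (these 4 and TRIM35) the exon followed a 96-base and then a 231-base exon. A length of 23 is not a multiple of 3, so skipping this exon alone shifts the reading frame.

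Lengths set TRIM exons apart from other listed exons. Of 95 TRIM exons, 6 (6.32%) were 23 bases long, against 18 of 39339 exons of all other genes (0.0458%). The 96-base length was that of 13 TRIM exons in 12 genes (13.7%), against 1.05% of the other exons, and the 231-base length that of 3 TRIM exons (3.16%), against 0.147%. The other lengths held by at least 3 TRIM exons were 61, 166 and 168 bases, with 3 exons each. This tally was made after the exons had been seen, and related genes share their exon structure by descent, so the exons are not independent observations.

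**Figure D1:**
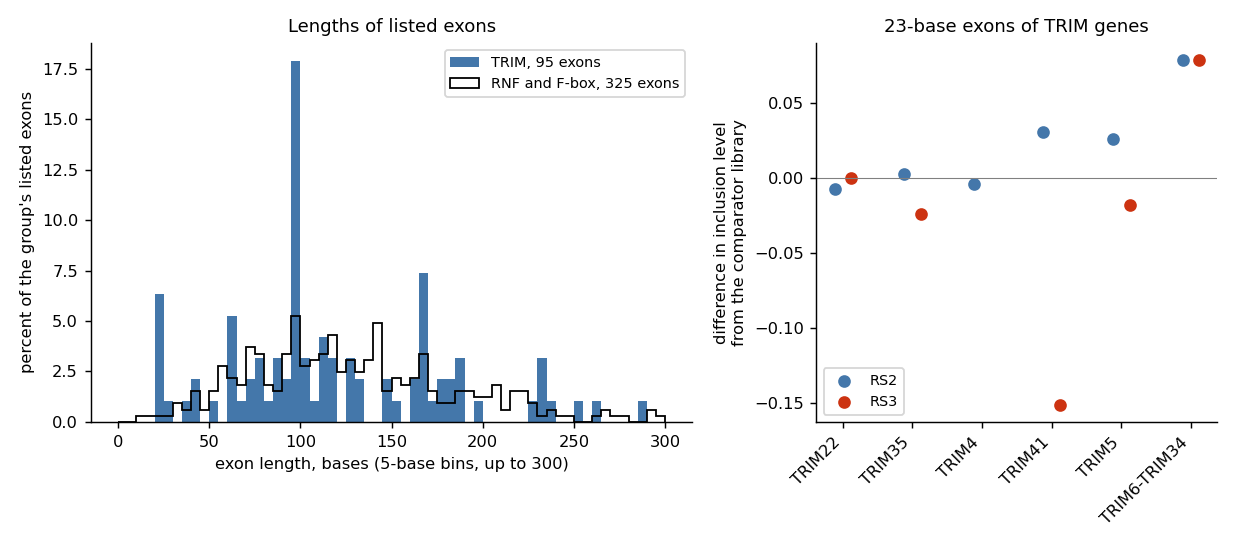
Left, exon lengths in bases (5-base bins) as the percent of 95 TRIM exons (filled) and of the RNF and F-box exons (outline), with TRIM peaks in the bins that hold 23 and 96 bases. Right, difference in inclusion level from the comparator for each 23-base TRIM exon in RS2 (blue) and RS3 (red), where TRIM41 in RS3 lies lowest at -0.151.

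Inclusion of the 23-base TRIM41 exon (ENSG00000146063, exon 4 of 8 in a coding GENCODE transcript) fell by 0.151 in RS3 (p = 0.000125, FDR 0.0117 in the authors' deposited table). In RS2 the authors' deposited table gave 0.031 for the same exon (p = 0.0980, FDR 1). The exon had 1 row in each table. GENCODE release 29 has 3 protein-coding TRIM41 transcripts with this exon and 0 that span it without it. The RS3 table also listed TRIM41 exons of 64 and 84 bases, with differences of -0.142 (FDR 0.675) and -1 (FDR 0.712) in the authors' deposited table. Neither of these was in the RS2 table.

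The other 23-base TRIM exons lay within 0.079 of the comparator. In RS3 the authors' deposited table gave -0.024 for TRIM35, -0.018 for TRIM5 and 0 for TRIM22, with TRIM4 not listed. In RS2 the authors' deposited table gave -0.007 for TRIM22, 0.026 for TRIM5, 0.003 for TRIM35 and -0.004 for TRIM4. The TRIM6-TRIM34 readthrough, which could not be matched in GENCODE, had 0.079 in RS2 and 0.079 in RS3 per the authors' deposited table. The 96-base TRIM exons ranged from -0.158 to 0.043 over 12 RS2 rows and from -0.067 to 0.043 over 13 RS3 rows in the authors' deposited table.

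Across all members few rows passed the call, an FDR under 0.05 with an absolute difference of at least 0.1. In RS3, 1 of 468 member rows was called, that of TRIM41 with lower inclusion, against 0.967% of all rows of the table. In RS2, 0 of 453 were called, against 0.0712% of all rows. The FDR threshold alone was passed by 3 of 468 RS3 member rows and 0 of 453 RS2 member rows. Over all rows it was passed by 699 of 42518 in RS3 and 67 of 40702 in RS2. A deposited p under 0.05, with no correction, was listed for 29 member rows in RS3 (6.2%), 20 lower and 9 higher, against 7.61% of all rows. In RS2 it was listed for 10 member rows (2.21%), 5 lower and 5 higher, against 4.52% of all rows. Among all rows with such a p, 2211 were lower and 1026 higher in RS3, and 1016 lower and 823 higher in RS2. The members' shares were near or below those of the whole tables.

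**Figure D2:**
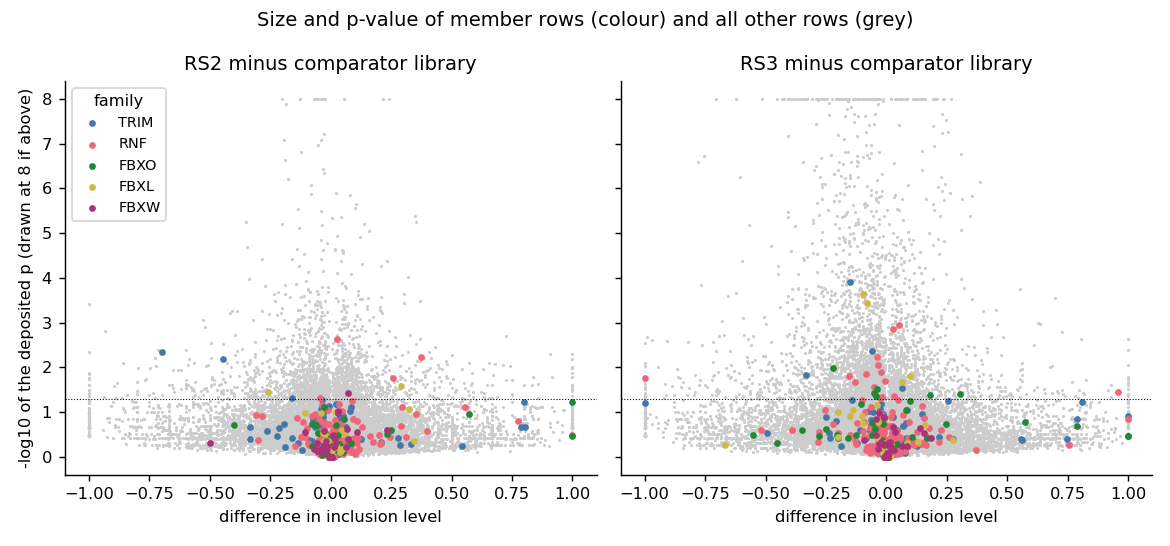
Deposited difference in inclusion level (x) against -log10 of the deposited p (y, drawn at 8 where larger) for member rows in colour by family and all other rows in grey, RS2 left and RS3 right; a dotted line marks the 0.05 level. In RS3 the TRIM41 row (-0.151) and both FBXL12 rows (-0.098 and -0.080) are the highest coloured points.

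Member rows of the authors' deposited table had a median difference of -0.0015 in RS3, against -0.001 over all rows, and of 0.001 in RS2, against 0 over all rows. The quartiles of the members were -0.024 and 0.0182 in RS3 and -0.016 and 0.025 in RS2, from the authors' deposited table. Differences of at least 0.1 in size were listed for 90 RS3 member rows (19.2%, against 21.2% of all rows), 44 lower and 46 higher. In RS2 they were listed for 71 rows (15.7%, against 19.2% of all rows), 26 lower and 45 higher. Among all rows of this size, 5231 were lower and 3765 higher in RS3, and 3874 lower and 3960 higher in RS2. Of the large member rows, 57 in RS3 and 66 in RS2 had a listed FDR of 1. Over all rows this held for 5151 of 8996 large differences in RS3 and 7216 of 7834 in RS2. An FDR under 0.05 was listed for 1 of the 90 large RS3 member rows and 0 of the 71 in RS2. Over all rows it was listed for 411 of the 8996 large differences in RS3 and 29 of the 7834 in RS2.

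Such sizes were spread over all 5 families. In RS3 they made up 33.9% of 56 FBXO rows, 33.3% of 27 FBXL rows, 23.5% of 102 TRIM rows, 14.4% of 243 RNF rows and 7.5% of 40 FBXW rows. In RS2 the shares were 11.5% of 52 FBXO rows, 18.5% of 27 FBXL rows, 22.0% of 100 TRIM rows, 14.7% of 232 RNF rows and 9.52% of 42 FBXW rows. Of the 19 large FBXO rows in RS3, 6 were of FBXO24 alone, whose rows ranged from -0.554 to 0.790 with p-values of at least 0.162 in the authors' deposited table. Its 142-base coding exon had -0.554 in RS3 (p = 0.323) and 1 in RS2 (p = 0.0594) in the authors' deposited table, opposite signs without a call. In RS3 a p under 0.05 was listed for 7.61% of all rows, 2211 lower and 1026 higher. Among RNF rows it was listed for 15 (6.17%), 11 lower and 4 higher. The other RS3 counts were 6 FBXO rows (10.7%), 4 TRIM rows (3.92%), 4 FBXL rows (14.8%) and 0 FBXW rows. In RS2 such a p was listed for 4 RNF rows (1.72%), 0 FBXO rows, 3 TRIM rows (3%), 2 FBXL rows (7.41%) and 1 FBXW row (2.38%). Over all RS2 rows the share was 4.52%. The families were not tested against each other.

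**Figure D3:**
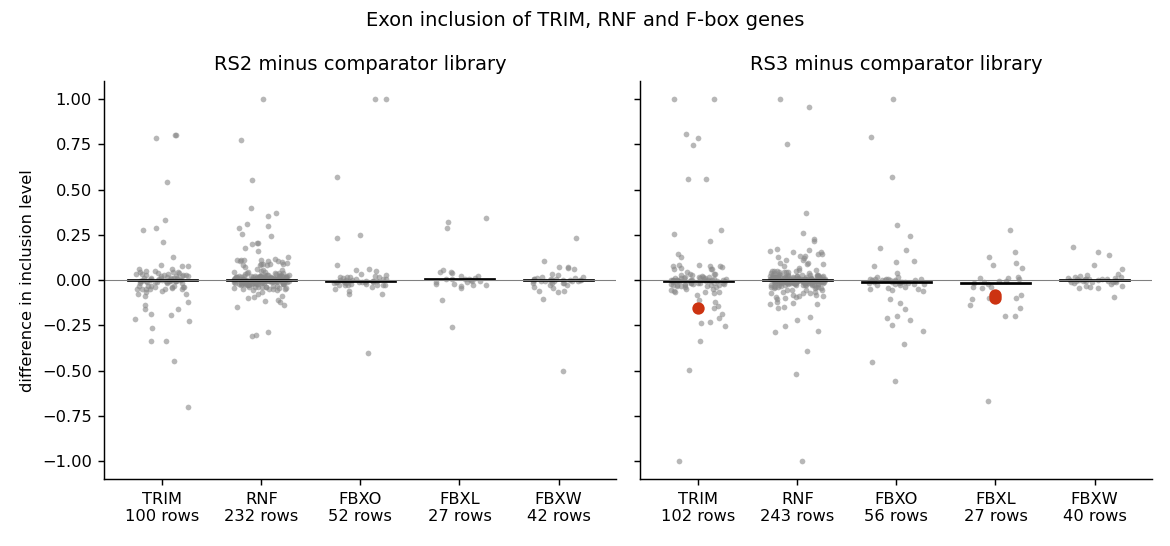
Difference in inclusion level from the comparator for every member row, by family, in RS2 (left) and RS3 (right); black bars are medians and red points are rows with an FDR under 0.05. Medians lie near 0 in every family, and the red points are TRIM41 and the overlapping FBXL12 forms in RS3.

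Among F-box genes the firmest rows were those of FBXL12 (ENSG00000127452), a substrate adaptor of the SCF complex. On chromosome 19 a 202-base exon (9924814 to 9925015) had a difference of -0.098 in RS3 (p = 0.000224, FDR 0.0183 in the authors' deposited table). A form of the same exon that is 3 bases longer at its 5′ end (9924814 to 9925018) had -0.080 (p = 0.00036, FDR 0.0262 in the authors' deposited table). In RS2 the authors' deposited table gave -0.003 for the shorter and 0.012 for the longer form (FDR 1 for both). Both forms passed the FDR threshold in RS3 and missed the size threshold, and since they overlap they are not independent. GENCODE has them only in transcripts marked for nonsense-mediated decay, and 8 protein-coding transcripts span the position without them. A 44-base FBXL12 exon (9923907 to 9923950) showed -0.103 in RS3 (p = 0.120) and -0.258 in RS2 (p = 0.0358) in the authors' deposited table, with a second RS2 row at -0.107.

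FBXO33, an F-box protein linked to turnover of the RNA-binding protein YB-1, had a 111-base coding exon with -0.220 in RS3 (p = 0.0102, FDR 0.283) and -0.026 in RS2 (p = 0.441) in the authors' deposited table. Its 686-base exon had -0.206 in RS3 (p = 0.331) and -0.008 in RS2 (p = 0.947) in the authors' deposited table. Both FBXO33 exons thus lay lower in RS3 and near 0 in RS2, without a call. The 111-base exon is shown in capitals between its neighbours because its length keeps the reading frame.

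FBXO33, chr14:39871605-39871715, minus strand: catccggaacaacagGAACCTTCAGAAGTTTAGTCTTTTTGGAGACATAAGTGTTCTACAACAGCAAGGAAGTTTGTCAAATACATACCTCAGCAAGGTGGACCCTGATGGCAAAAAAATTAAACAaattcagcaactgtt

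FBXL5, the iron-sensing F-box protein that directs iron regulatory protein IRP2 to degradation, had a 165-base exon with 0.158 in RS3 (p = 0.192) and 0.289 in RS2 (p = 0.0258, FDR 0.972) in the authors' deposited table. The overlapping 216-base form of this exon had 0.014 in RS3 and 0.022 in RS2 in the authors' deposited table. GENCODE has the 216-base form in 6 protein-coding transcripts and the 165-base form in 1. FBXO22 had a 165-base exon at 0.303 in RS3 (p = 0.0400), but its other RS3 row was -0.200, and the RS2 value was 0.250 (p = 0.249), in the authors' deposited table. FBXO44 had a 30-base untranslated exon with 0.178 in RS3 (p = 0.0416) and -0.007 in RS2 (p = 0.944) in the authors' deposited table. The other FBXO44 exons, among them an overlapping 372-base form, had 0.007 and 0.079 in RS3 and -0.060 and -0.010 in RS2 in the authors' deposited table. Overlapping FBXL6 exons of 46 and 64 bases had 0.096 and 0.066 in RS3 (p = 0.0158 and 0.0215), and 0.059 and 0.045 in RS2 (p = 0.303 and 0.249), in the authors' deposited table. None of these passed the FDR threshold.

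FBXW genes held no call. FBXW9 had a 140-base exon with 0.006 in RS3 (p = 0.914) and 0.073 in RS2 (p = 0.0365) in the authors' deposited table. FBXW11, which recognizes phosphorylated targets such as beta-catenin, had a 130-base exon of noncoding transcripts with -0.031 in RS3 (p = 0.104) and -0.026 in RS2 (p = 0.259) in the authors' deposited table. The 4 rows of FBXW7, which directs cyclin E and MYC to degradation, ranged from -0.093 to 0.157 in RS3 and from -0.057 to 0.071 in RS2 in the authors' deposited table. Its smallest p was 0.291 in RS3 and 0.393 in RS2 in the authors' deposited table.

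Of 319 member exons listed in both tables, 1, in TRIM46, had a p under 0.05 in both. The same count over all exons is not given here, so 1 cannot be called few or many. RNF41 and FBXL12 had such p-values at different exons in the 2 tables. TRIM46 organizes parallel microtubules at the start of the axon in neurons. Its 38-base exon (ENSG00000163462) had -0.334 in RS3 (p = 0.0147, FDR 0.352) and -0.698 in RS2 (p = 0.00462, FDR 0.544) in the authors' deposited table. The other TRIM46 exons, of 262 and 254 bases, had 0.086 and 0.067 in RS3 and 0.078 and 0.015 in RS2 in the authors' deposited table. The tables share the comparator library, so the values are not independent. GENCODE has the exon in 1 protein-coding transcript, and 7 span the position without it. The exon is printed in capitals because 73.7% of its bases are G or C, against 39.1% in the TRIM41 exon.

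TRIM46, chr1:155151285-155151322, plus strand: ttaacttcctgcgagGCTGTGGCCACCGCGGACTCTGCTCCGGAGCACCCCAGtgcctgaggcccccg

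Other TRIM genes gave single rows with low p-values. TRIM37, which restrains the assembly of centrosomes, had a 129-base coding exon with -0.061 in RS3 (p = 0.00424, FDR 0.165) and -0.002 in RS2 (p = 1) in the authors' deposited table. TRIM65, which ubiquitinates the RNA sensor MDA5, had a 175-base exon with rows at -0.447 (p = 0.00661, FDR 0.632) and -0.047 (p = 0.629) in RS2, per the authors' deposited table. Its RS3 rows were 0.080 and 0.062 in the authors' deposited table. TRIM54, a microtubule-binding protein of striated muscle, had a 96-base exon with -0.064 in RS3 (p = 0.197) and -0.158 in RS2 (p = 0.0480) in the authors' deposited table.

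TRIM28, the corepressor that works with KRAB zinc-finger proteins, had a 113-base exon listed in 4 rows of each table. In RS2 the authors' deposited table ranged from -0.008 to 0.800 over them, the largest with a p of 0.0595, and in RS3 from -0.006 to 0.009. The large TRIM28 difference was thus that of 1 row of 4 for the exon. Over the 4 TRIMs with a PHD finger and bromodomain (TRIM24, TRIM28, TRIM33 and TRIM66), 0 of 12 RS3 rows and 0 of 14 RS2 rows were called or had a p under 0.05. Over all rows 0.967% in RS3 and 0.0712% in RS2 were called, and 7.61% in RS3 and 4.52% in RS2 had a p under 0.05, so a count of 0 in lists this short does not set them apart. The antiviral and innate immune TRIMs had 0 called of 17 RS3 rows and 0 of 19 RS2 rows, and the smallest p in the authors' deposited table was 0.0947 in RS3 and 0.0736 in RS2. The cytoskeletal and muscle TRIMs had 0 called of 10 RS3 rows and 0 of 7 RS2 rows, TRIM46 and TRIM54 among them.

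RNF genes held the most rows and no call. RNF181, a RING ligase, had the smallest RNF p-values in RS3, for overlapping exon forms of 110 and 75 bases that share their 3′ end on chromosome 2. In the authors' deposited table the 110-base form had RS3 rows at 0.028 (p = 0.00137, FDR 0.0739) and -0.005 (p = 1). In the authors' deposited table the 75-base form had RS3 rows at 0.051 (p = 0.00113, FDR 0.0635) and -0.156 (p = 0.0154, FDR 0.360), which have opposite signs. In RS2 the authors' deposited table ranged from -0.016 to 0.022 over the 4 rows of both forms. The 110-base exon is printed with the 35 bases that the 75-base form lacks in capitals, the only difference between the forms.

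RNF181, chr2:85823945-85824054, plus strand: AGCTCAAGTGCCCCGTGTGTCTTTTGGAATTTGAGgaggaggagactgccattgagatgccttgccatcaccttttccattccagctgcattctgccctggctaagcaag

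RNF41, known for the turnover of the receptor ERBB3, had the smallest member p-value in RS2, at a 143-base exon (chromosome 12, 56600952 to 56601094). The authors' deposited table gave 0.025 for it in RS2 (p = 0.00228, FDR 0.378) and 0.002 in RS3 (p = 1). Another 143-base RNF41 exon (56606780 to 56606922) had -0.039 in RS3 (p = 0.00596, FDR 0.206) and -0.014 in RS2 (p = 0.437) in the authors' deposited table. Both differences were small. RNF13, a ligase of endosomal membranes, had a 102-base untranslated exon with -0.034 in RS3 (p = 0.00886) and 0.015 in RS2 (p = 0.393) in the authors' deposited table. RNF19B, of the RING-between-RING class, had a 132-base coding exon with -0.083 in RS3 (p = 0.0141) and -0.036 in RS2 (p = 0.163) in the authors' deposited table, beside second rows of -0.008 and -0.001.

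RNF146, which ubiquitinates axin once it carries poly(ADP-ribose) and so acts in Wnt signalling, had a 128-base exon with 0.090 in RS3 (p = 0.375) and 0.373 in RS2 (p = 0.00579, FDR 0.597) in the authors' deposited table. RNF111, which degrades inhibitors of TGF-beta signalling, had rows from -0.024 to 0.001 in RS3 and from -0.053 to 0.023 in RS2 in the authors' deposited table. RNF185, a ligase of the endoplasmic reticulum, had a 98-base exon, known only from noncoding transcripts, with -0.024 in RS3 (p = 0.0130) and -0.009 in RS2 (p = 0.433) in the authors' deposited table. RNF7, the RING partner of cullin 5, had a 264-base exon with -0.005 in RS3 (p = 0.0203) and -0.001 in RS2 (p = 0.613) in the authors' deposited table, beside second rows of -0.023 and -0.005. RNF207 had a 187-base coding exon with 0.067 in RS3 (p = 0.118), beside a second row of -0.031, and 0.090 in RS2 (p = 0.0553) in the authors' deposited table.

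DNA damage and histone ubiquitination ligases had 0 called of 24 RS3 rows, against 0.967% of all rows, and 0 of 19 RS2 rows, against 0.0712%. RNF8, which ubiquitinates chromatin at DNA breaks, had a 90-base exon whose 3 RS3 rows ranged from -1 (p = 0.0171, FDR 0.383) to 0.009 in the authors' deposited table. Its RS2 rows were between -0.002 and 0 in the authors' deposited table. RNF138, which acts in DNA end resection, had a 166-base exon with -0.024 in RS3 (p = 0.276) and -0.044 in RS2 (p = 0.0473) in the authors' deposited table. Its 187-base exon had 0.019 in RS3 (p = 0.211) and 0.034 in RS2 (p = 0.0659) in the authors' deposited table. RNF152, a lysosomal ligase, had a 152-base exon of noncoding transcripts with 0.957 in RS3 (p = 0.0361, FDR 0.567) and -0.056 in RS2 (p = 0.499) in the authors' deposited table.

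**Figure D4:**
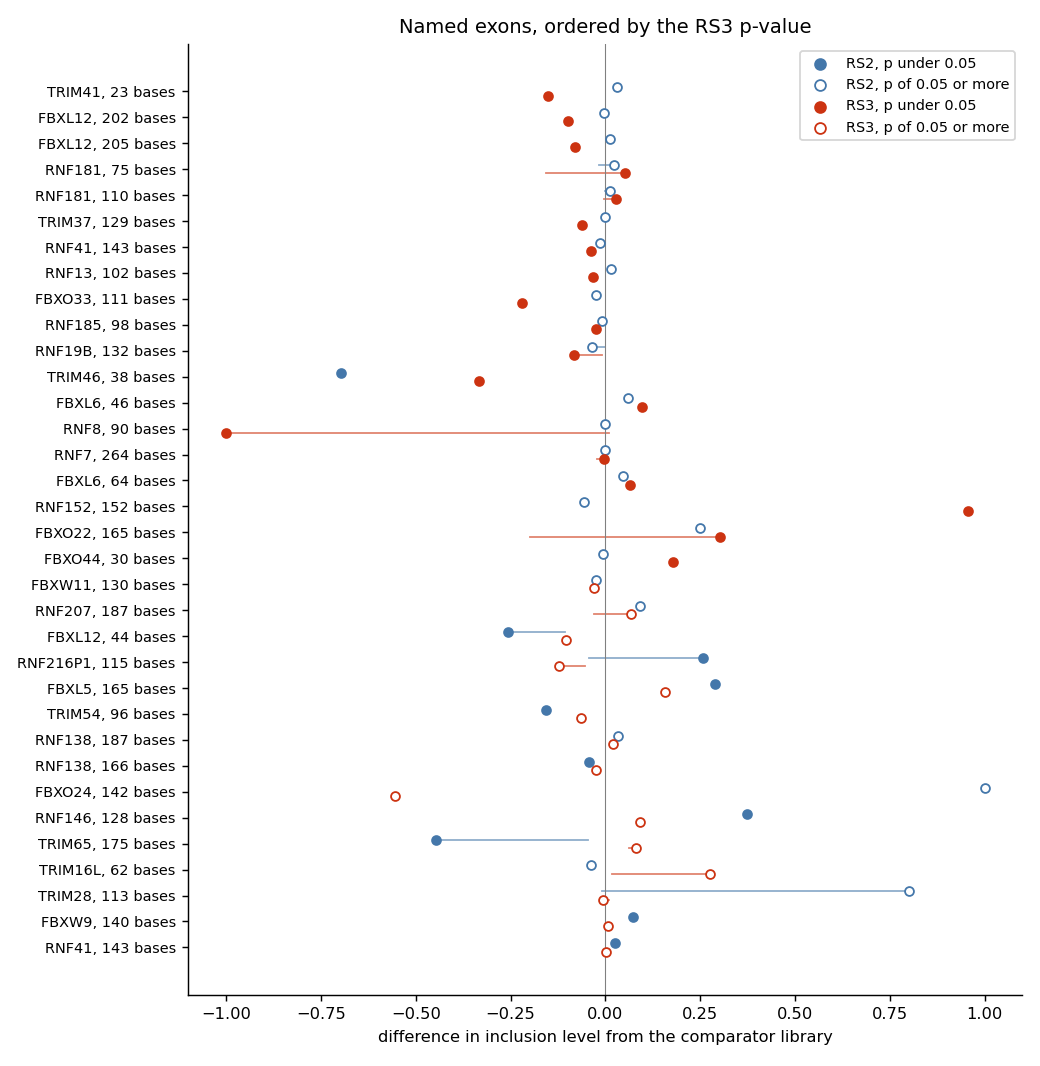
Difference in inclusion level from the comparator for the 34 named exons in RS2 (blue) and RS3 (red), ordered by the RS3 p-value; filled points have a deposited p under 0.05 and lines span all rows of an exon. TRIM46 is filled in both libraries, at -0.334 in RS3 and -0.698 in RS2, while the RNF8 line runs from -1 to 0.009.

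The remaining role lists also held no call, against 0.967% of all RS3 rows and 0.0712% of all RS2 rows, which in lists of this length is near what the whole tables show. The RING-between-RING ligases had 0 called of 35 RS3 rows and 0 of 33 RS2 rows, with differences from -0.281 to 0.155 in RS3 per the authors' deposited table. The endoplasmic reticulum ligases had 0 of 37 in RS3 and 0 of 32 in RS2. The membrane ligases with a protease-associated domain had 0 of 24 in RS3 and 0 of 20 in RS2, and the ligases of TGF-beta and Wnt signalling 0 of 4 in RS3 and 0 of 6 in RS2. The F-box proteins of cell cycle and circadian control had 0 of 28 in RS3 and 0 of 28 in RS2. At p under 0.05 without correction, RS3 had 3 rows in the protease-associated list (12.5%), 1 in the RING-between-RING list (2.86%), 1 in the endoplasmic reticulum list (2.7%) and 1 in the F-box list (3.57%), against 7.61% of all rows. RS2 had 1 such row, that of RNF146, among the 6 of the TGF-beta and Wnt list, against 4.52% of all rows, and 0 in the other lists of this paragraph.

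The genes with the most listed exons were TRIM16 with 12, RNF123 with 11 and RNF10 with 10. RNF10 was flat, from -0.002 to 0.005 over 9 RS3 rows and from -0.007 to 0.004 over 11 RS2 rows in the authors' deposited table. RNF123 ranged from -0.045 to 0.028 in RS3 and from -0.019 to 0.312 in RS2 in the authors' deposited table. TRIM16 ranged from -0.233 to 0.808 in RS3 and from -0.333 to 0.804 in RS2 per the authors' deposited table, with no p under 0.05. TRIM16 shares sequence with the copy TRIM16L, so reads could be split between them and these values are uncertain. TRIM16L had a 62-base exon with 0.276 and 0.016 in RS3 (smaller p = 0.404) and -0.037 in RS2 (p = 0.0530) in the authors' deposited table.

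Position in the transcript was then read from GENCODE for 413 of the 420 exons. Of all 420, 279 (66.4%) were coding over their whole length, 39 partly coding and 31 untranslated in a protein-coding transcript. A further 30 were found only in nonsense-mediated decay transcripts, 34 only in noncoding transcripts, and 7 were not matched. At least 1 protein-coding transcript spanned but left out 175 of the matched exons. Differences of at least 0.1 in size made up 18.2% of 313 coding rows in RS3 and 12.2% of 303 in RS2. For untranslated exons the shares were 23.7% of 38 rows in RS3 and 27.0% of 37 in RS2, and for exons of noncoding transcripts 25.0% of 36 and 27.0% of 37. Partly coding exons had 15.8% of 38 rows in RS3 and 15.4% of 39 in RS2. Exons only in decay transcripts had 21.1% of 38 and 20.0% of 30. Over all rows of the tables the shares were 21.2% in RS3 and 19.2% in RS2. The places were not tested against each other. Lengths that are multiples of 3 made up 42.3% of RS3 member rows, against 41.2% of all rows, and 44.4% of RS2 member rows, against 41.1%.

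Other parts of the ubiquitin system gave a few calls in RS3, against 0.967% of all rows, and none in RS2, against 0.0712%. Of all called RS3 rows, 313 were lower and 98 higher. The cullin-RING list, which also holds the member RNF7, had 3 called of 165 RS3 rows, in RBX1 and DCUN1D5 (-0.231), all lower in the authors' deposited table. RBX1, the RING subunit on which F-box proteins depend, fell by 0.265 at a 71-base exon in RS3 in the authors' deposited table (FDR 7.42e-10), beside a second row of -0.016. At its 79-base exon the RS3 rows in the authors' deposited table were -0.130 (FDR listed as 0), -0.063 (FDR 0.000226) and -0.002 (FDR 1). In RS2 the RBX1 rows of these exons lay between -0.006 and 0.011 in the authors' deposited table. Rows of the same exon thus disagreed in size, and the flanking exons that tell the rows apart are not listed.

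Among HECT ligases, 2 of 129 RS3 rows were called, TRIP12 (0.110) and WWP2 (-0.243, beside a second row of -0.036) in the authors' deposited table. Among E1 and E2 enzymes, 2 of 172 were called, both overlapping exons of NAE1, a subunit of the NEDD8-activating enzyme that switches cullins on, with -0.152 and -0.117 in the authors' deposited table, beside a second row of 0.026. Among deubiquitinases, 3 of 228 were called, all lower: USP33 (-0.117), USP3 (-0.160) and USP53 (-0.173) in the authors' deposited table. In RS2, 0 of 124, 0 of 155, 0 of 162 and 0 of 229 rows were called for the HECT, cullin-RING, E1 and E2, and deubiquitinase lists. At the exons called in RS3, the authors' deposited RS2 table gave -0.067 for USP33, -0.084 for USP3, -0.077 for USP53 and 0.061 for TRIP12. Those differences had the same sign as in RS3 but were smaller. For the rest, the authors' deposited RS2 table gave 0.101 and 0.004 for WWP2, -0.019 to 0.026 for NAE1 and 0.001 for DCUN1D5. Over all rows the shares called were those given above, and the lists were not tested against the members.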

How the data were processed

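The 3 libraries, 1 per siRNA, gave the 2 tables used. The submitters' processing notes name FastQC, STAR and hg19. The program that called the events, its flanking exons and the read counts are not given in the sources used here. Per the file headers, each row holds a p-value, an FDR (both computed by the authors) and a difference of inclusion levels. The tables' 4 columns of inclusion level per library were not used, since no label ties a library code to a sample. A look at them outside the scripts showed that the deposited difference is the level listed first minus that listed second.

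Rows were taken as deposited, and no model was fitted here. A call needed an FDR under 0.05 across the whole table and an absolute difference of at least 0.1. An exon in several rows is given by its row with the smallest p-value. The 34 named exons have an FDR under 0.05, are among the 15 smallest p-values of a table, are among the 5 largest in a direction with p under 0.05, lead a family, or have p under 0.05 in both tables. The 3 genes with the most exons (ties by symbol) were also named. RNF111, FBXW7 and the other 23-base TRIM exons were added after their values were seen, as were the second rows and exons given beside named ones. Members and lists were chosen with earlier results of these data known.

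Exons were matched to GENCODE release 29 (GRCh38) by gene identifier, length and, for 379 of 413, equal spacing to another listed exon of the gene. No coordinate was converted. The remaining 34 had a length found once in the gene. The alternative adjustment was tested on simulated data. Python 3.11.15, pandas 2.3.3, numpy 2.4.6 and scipy 1.17.1 were used.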

Additional observations from a re-analysis of the deposited data

Results flagged for a closer look

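A 115-base exon of RNF216P1 (chromosome 7, 5028694 to 5028808), a pseudogene of the ligase gene RNF216, is given because RS3 and RS2 lay on opposite sides of the comparator by at least 0.1 each, with a p under 0.05 in 1 of them. Opposite signs alone were not particular to this exon, since FBXO24 and other members also had them at this size. In the authors' deposited table it had -0.123 in RS3 (p = 0.177, FDR 0.974) and 0.256 in RS2 (p = 0.0170, FDR 0.869). Its rows in the authors' deposited table ranged from -0.123 to -0.054 in RS3 and from -0.044 to 0.256 in RS2. The difference between RS3 and RS2 was not tested. Reads may be split between the pseudogene and its near-identical parent gene, so the values are uncertain.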

How the results depend on the processing

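The RS3 count of 1 called member row became 3 with a minimum difference of 0.05, when both FBXL12 forms joined TRIM41. It became 0 with a minimum difference of 0.2, 0 with an FDR under 0.01 and 0 among lengths that are multiples of 3. By size alone it was 90 in RS3 and 71 in RS2, where the main count was 0. The counts were the same with an FDR under 0.1, the deposited p-values adjusted anew by Benjamini-Hochberg, exons or genes in place of rows, exons in a single row and exons in both tables. They were also the same without genes that have a near-identical copy or readthrough, an alternative chosen after seeing the data. The median member difference was -0.005 in RS3 and 0.002 in RS2 over exons in a single row. With 1 value per gene it was -0.0012 in RS3 and 0.0055 in RS2, and with 1 value per exon -0.004 in RS3. Taking the row with the largest absolute difference, or the median over rows, changed the sign of 2 of 34 named exons in RS3 and 0 of 34 in RS2. Sizes moved more: over both tables the median changed 20 values and left 48 the same. Among these moves were RNF8 in RS3 from -1 to -0.002, TRIM28 in RS2 from 0.800 to 0.0025 and FBXO22 in RS3 from 0.303 to 0.0515. The row with the largest absolute difference changed 4 values and left 64 the same. No paired analysis was possible because each group has 1 library. Depth is unknown, so small counts behind a difference cannot be recognized.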

Other observations

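Some members outside the naming rule are given here because of what they do, chosen after their values were seen. TRIM71, the stem-cell protein known as LIN41 and a classical target of the let-7 microRNA, had a 168-base exon with 0.064 in RS3 (p = 0.0295, FDR 0.517) and 0.049 in RS2 (p = 0.143, FDR 1) in the authors' deposited table. FBXO31, which directs cyclin D1 to degradation, had a 72-base exon with -0.050 in RS3 (p = 0.0368) and -0.003 in RS2 (p = 0.836) in the authors' deposited table. RNF135, which activates the viral RNA sensor RIG-I, had a 163-base exon with rows from -0.130 (p = 0.0210) to 0.044 in RS3 and from 0.018 to 0.091 in RS2 in the authors' deposited table. None passed the FDR threshold. The linear-chain ligase RNF31 had 10 listed exons, under 2 gene identifiers, all in RS3 and 7 of them in RS2. They lay between -0.016 and 0.006 in RS3 and between -0.019 and 0.022 in RS2 in the authors' deposited table.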
